A study of Mus musculus with 14 samples.

Results

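The Tox family of the mouse has 4 genes, *Tox*, *Tox2*, *Tox3* and *Tox4*, and all 4 are among the 28929 gene symbols of the brain and retina count tables. The family was selected on measured values, and the rule reads the levels of all 4 genes by cell type in knockout against control mice, in the brain and in the retina. A high ratio of *Tox* in brain endothelial cells (ECs) was known when the family was chosen. Brain values are therefore given as a description with no test, and p-values of the retina are no independent support. The study asked how loss of the TGF-beta receptor TGFBR1 from ECs affects the vessels and cells of the brain and retina. Nuclei were profiled by single-nucleus RNA sequencing (snRNAseq) with PIPseq, which counts each captured transcript once by its unique molecular identifier (UMI).

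Conditional knockout (CKO) mice were *Cdh5CreER;Tgfbr1 CKO/-*, with 1 floxed and 1 null allele of *Tgfbr1*, and received 4-hydroxytamoxifen on postnatal days 3 to 5. No 4-hydroxytamoxifen days are listed for the control libraries, so treatment and genotype cannot be told apart. The labels call the controls wild type, and no control genotype is given for the libraries. For retinas counted for neovascularization, the study describes phenotypically normal controls that typically carried the Cre transgene and a single floxed allele. All mice were taken at postnatal day 14, an age that the labels do not state. There is 1 control and 1 CKO library of nuclei from brain vascular fragments, each from 2 pooled brains, and there are 1 control and 11 CKO libraries of nuclei from whole retinas. Cre is driven by the *Cdh5* promoter of ECs, whereas the null allele is carried by all cells of a CKO mouse. The number of mice behind a retina library is not given, nor is it stated whether brains and retinas came from the same animals.

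TOX proteins are nuclear proteins with a single HMG box, a fold that binds the minor groove and bends DNA with little sequence preference. TOX is best known from lymphocytes, where it is needed for helper T cell, NK cell and lymphoid tissue inducer development and, under calcineurin and NFAT signals, maintains exhausted T cells. TOX2 acts in follicular helper T cells and NK cells, TOX3 joins CREB in calcium-dependent transcription in neurons, and TOX4 is a subunit of a nuclear phosphatase complex (PTW/PP1) that acts on RNA polymerase II.

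The members lie on separate chromosomes of the GRCm39 genome. *Tox* (ENSMUSG00000041272.13) spans 305 kb of chromosome 4, from 6686353 to 6991644 on the minus strand. *Tox2* (ENSMUSG00000074607.13) spans 121 kb of chromosome 2, from 163045021 to 163166191 on the plus strand. *Tox3* (ENSMUSG00000043668.15) spans 103 kb of chromosome 8, from 90972261 to 91075014 on the minus strand, and *Tox4* (ENSMUSG00000016831.14) spans 17.3 kb of chromosome 14, from 52516587 to 52533858 on the plus strand. Only *Tox4* overlaps protein-coding genes, *Rab2b* and *Mettl3*, which run antisense to it and share exon positions with it. *Tox* overlaps 2 long noncoding RNAs, of which the antisense *Gm11802* is in the count tables, *Tox3* overlaps the antisense noncoding *Gm64435*, and *Tox2* overlaps no annotated gene.

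The brain control library holds 49798325 UMIs in 16649 nuclei and the brain CKO library 31033373 UMIs in 14675 nuclei, with medians of 1541 and 1395 UMIs per nucleus. In the retina the control library holds 30989702 UMIs in 11513 nuclei. The CKO retina libraries range from 90449 to 55803724 UMIs and from 104 to 18862 nuclei. Replicate 4 stands apart with its 104 nuclei and a median of 613 UMIs, and it entered levels and tests by label only for retinal ganglion cells and immune cells. The control and CKO replicates 1 to 3 form batch 1 of the deposited annotation, replicates 4 and 5 form batch 2, and the rest batch 3. Replicates 8 to 11 were made with the v5.0 kit, and all other libraries, brain included, with the v4.0 PLUS kit. Libraries shared 2 barcodes among 31324 brain nuclei and 10 among 77676 retina nuclei.

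Levels are counts per 1000000 UMIs (CPM), from a gene's UMIs summed over all nuclei of a label in a library. Intervals in parentheses after a level, a share or a ratio are 95% intervals (exact Poisson, exact binomial and exact conditional binomial in turn) and cover counting error only. With 1 brain library per genotype there is no replicate error and no test in the brain, so a difference between the genotypes cannot be told apart from a difference between the libraries.

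*Tgfbr1*, the deleted gene, had 401 UMIs in control brain ECs and 431 in CKO ECs. These are levels of 69.1 and 62.9 CPM and a ratio of 0.910 (0.792 to 1.05). Across whole retina libraries it stood at 89.0 CPM in the control. The 10 CKO libraries other than replicate 4 ran from 71.4 through a median of 78.9 to 87.0 CPM, all below the control, and replicate 4 had 365 CPM from 33 UMIs. The deposited counts do not separate the deleted exons from the rest of the gene, so these levels are no check of the deletion.

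The EC label holds 2475 control and 2944 CKO nuclei, with medians of 1347 and 1491 UMIs. All 9 EC markers had UMIs in both libraries, with a summed level of 12243 CPM in the control and 9752 CPM in the CKO. *Flt1* was the most abundant of them at 3982 and 2745 CPM. The ratio of the median gene in ECs was 1.10 (0.14 on the log2 scale), against which the members' ratios can be read.

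*Tox* had 39 UMIs in control ECs and 669 in CKO ECs, at levels of 6.72 (4.78 to 9.19) and 97.6 (90.4 to 105) CPM. The CKO library was the higher, and the intervals were far apart. Its ratio of 14.5 (10.5 to 20.6) stood 13th of 11351 genes with at least 50 UMIs over both libraries. Among the 7924 genes with at least 200 UMIs it stood 5th.

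*Tox3* had 173 UMIs in control ECs and 1390 in CKO ECs, at levels of 29.8 (25.5 to 34.6) and 203 (192 to 214) CPM. As with *Tox*, the CKO library was the higher and the intervals did not overlap. The ratio of 6.80 (5.80 to 8.01) ranked 64th of 11351 genes and 15th of 7924. Scaling by TMM, which weighs the bulk of the genes rather than the total, gave ratios of 13.5 for *Tox* and 6.33 for *Tox3*.

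*Tox4* and *Tox2* differed from that pattern. *Tox4* had 303 and 318 UMIs, levels of 52.2 (46.5 to 58.5) and 46.4 (41.4 to 51.8) CPM, and a ratio of 0.889 (0.757 to 1.04). A difference between the libraries was not detectable for it at this depth. Its ratio was between 0.827 and 1.30 over the alternatives with UMIs in both libraries, so its direction depends on them. EC nuclei with 0 pericyte-marker UMIs held 3 control and 0 CKO UMIs of it. *Tox2* had 22 and 8 UMIs and levels of 3.79 and 1.17 CPM. Its ratio of 0.308 (0.119 to 0.718) rests on fewer than 50 UMIs, so it enters no count of ratios.

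Of the 3 members with at least 50 UMIs in ECs, *Tox* and *Tox3* had a ratio of at least 2, as did 9.45% of the 11351 genes. Both were also past a ratio of 4, which 1.76% of the genes reached. None of these 3 was at or below 0.5, where 3.9% of the genes lay. Since the rule used this contrast, nothing is read from these counts.

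The share of EC nuclei with at least 1 UMI followed the levels. *Tox* was seen in 26 of 2475 control EC nuclei, or 1.05% (0.687 to 1.54), and in 445 of 2944 CKO EC nuclei, or 15.1% (13.8 to 16.5). *Tox3* was seen in 5.90% of control and 31.4% of CKO EC nuclei. Oligodendrocytes, a label with low levels of both genes, had *Tox* in 6.14% of control and 2.50% of CKO nuclei at medians of 2328 and 954.5 UMIs. They had *Tox3* in 3.98% and 0.625% of nuclei. The control EC share of *Tox* was thus below that of control oligodendrocytes, whereas the CKO EC shares of both genes were above every oligodendrocyte share.

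With each nucleus thinned to 500 UMIs, *Tox* was found in 0.194% of control and 2.85% of CKO EC nuclei, and in 2.54% and 0.842% of oligodendrocyte nuclei. *Tox3* was then found in 1.02% of control and 10.8% of CKO EC nuclei. Thinned control oligodendrocytes had *Tox3* in 1.36% of nuclei, and thinned CKO oligodendrocytes in 0 of 594. At a floor of 3 counts this allows a share of up to 0.505% at the thinned depth. The order of the libraries was therefore the same at equal depth.

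The CKO UMIs were spread over many EC nuclei. Of the 445 CKO nuclei with *Tox*, 316 held 1 UMI, 116 held 2 to 4 and 13 held 5 or more, with a maximum of 7. The 10 nuclei richest in *Tox* held 8.82% of its UMIs in CKO ECs and 59.0% in control ECs. For *Tox3* the maximum was 9 UMIs, and the 10 richest nuclei held 4.75% of its UMIs in CKO and 15.0% in control ECs.

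*Tox* and *Tox3* differed in how their level ran with the depth of a nucleus. In CKO ECs *Tox* stood at 13.9 CPM in nuclei with fewer than 1000 UMIs, 70.2 CPM in those with 1000 to 3000, and 125 CPM in those with 3000 or more. *Tox3* ran the other way, at 274, 224 and 181 CPM in the same classes. Control ECs had *Tox* at 0 (up to 5.14 at the floor of 3 counts), 2.61 and 9.50 CPM and *Tox3* at 15.4, 27.4 and 33.1 CPM, so each class had the higher level in the CKO library for both genes.

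*Tox3* was found in 254 of the 445 CKO EC nuclei with *Tox*, or 57.1%, and in 26.8% of the 2499 nuclei without it. Detection depends on depth, and after thinning to 500 UMIs the shares were 17.6% (13 of 74; 9.70 to 28.2) and 10.6% (267 of 2527; 9.39 to 11.8). These intervals overlap, so a link between the genes in the same nuclei was not detectable at equal depth.

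Markers of other cell types were present in the EC label, and their part in the *Tox* values was not tested beyond the subsets given here. Summed levels in control and CKO ECs were 8390 and 7127 CPM for 8 pericyte markers, 169 and 123 CPM for 7 neuron markers, and 311 and 300 CPM for 4 astrocyte markers. The most abundant were *Rgs5* at 5631 and 4831 CPM, *Syt1* and *Gja1*. The 9 T and NK cell markers in the table summed to 12.4 and 12.6 CPM, with *Ptprc* the most abundant. *Cd3e* and *Themis* were at 0 UMIs in control ECs, and *Cd3e* and *Ncr1* in CKO ECs. The choroid plexus markers, nearly all *Ttr*, summed to 1120 CPM in control and 476 CPM in CKO ECs, and the 5 microglia markers to 112 and 99.1 CPM. *Top2a*, the most abundant of the 7 cycling markers, stood at 115 and 243 CPM.

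The control UMIs of *Tox* lay mostly in deep EC nuclei, with 35 of the 39 in nuclei with 3000 or more UMIs, and nuclei with a marker UMI of another cell type were deeper. Control medians were 2661 UMIs with and 1280.5 without a neuron-marker UMI, and 3271 and 928.5 by the astrocyte markers, so depth and these markers cannot be told apart here. In control ECs *Tox* stood at 24.1 CPM in nuclei with a neuron-marker UMI and 3.3 CPM in those without, and at 12.2 and 1.05 CPM by the astrocyte markers. In CKO ECs the matching values were 134 and 91.2 CPM by the neuron markers and 111 and 80.9 CPM by the astrocyte markers. Among EC nuclei with 0 UMIs of the neuron, astrocyte, oligodendrocyte and precursor markers, *Tox* had 0 UMIs in 1362 control nuclei and 133 UMIs in 1411 CKO nuclei. The ratio has no upper limit there, and its lower 95% limit is 31.8. *Tox3* had a ratio of 11.8 (8.38 to 17.2) in the same nuclei.

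Nuclei picked by EC markers from all labels gave a much smaller ratio for *Tox*. Taking nuclei of any label with UMIs of at least 2 of the 9 EC markers (3190 control and 3086 CKO nuclei), *Tox* stood at 50.1 CPM in the control and 101 CPM in the CKO, a ratio of 2.01 (1.79 to 2.26). *Tox3* stood at 34.5 and 189 CPM, a ratio of 5.49 (4.86 to 6.21). The difference to the label lay in the control level of *Tox*, which was 6.72 CPM under the label. This control set held 468 UMIs of *Tox* against 39 under the EC label, so most of them came from nuclei of other labels.

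The vessel segment markers split the members further. Summed levels in control and CKO ECs were 855 and 980 CPM for the arterial, 7997 and 3552 CPM for the capillary, 850 and 785 CPM for the venous and 635 and 859 CPM for the tip cell markers. In CKO ECs *Tox* was at 105 CPM in nuclei with an arterial marker UMI and 71.1 CPM in those without, at 98.9 and 57.7 CPM by the capillary markers, and at 105 and 58.0 CPM by the venous markers. *Tox3* was the lower in marker-positive nuclei, at 186 and 263 CPM by the arterial markers, 198 and 366 CPM by the capillary markers, and 191 and 265 CPM by the venous markers. Tip cell markers gave *Tox* 102 and 86.4 CPM and *Tox3* 198 and 216 CPM. Nuclei with a marker UMI were deeper, with medians of 2154 against 838 UMIs for the arterial markers, and the levels above also ran with depth, upward for *Tox* and downward for *Tox3*. By the cycling markers *Tox* was at 109 and 87.9 CPM and *Tox3* at 203 and 202 CPM.

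**Figure D1:**
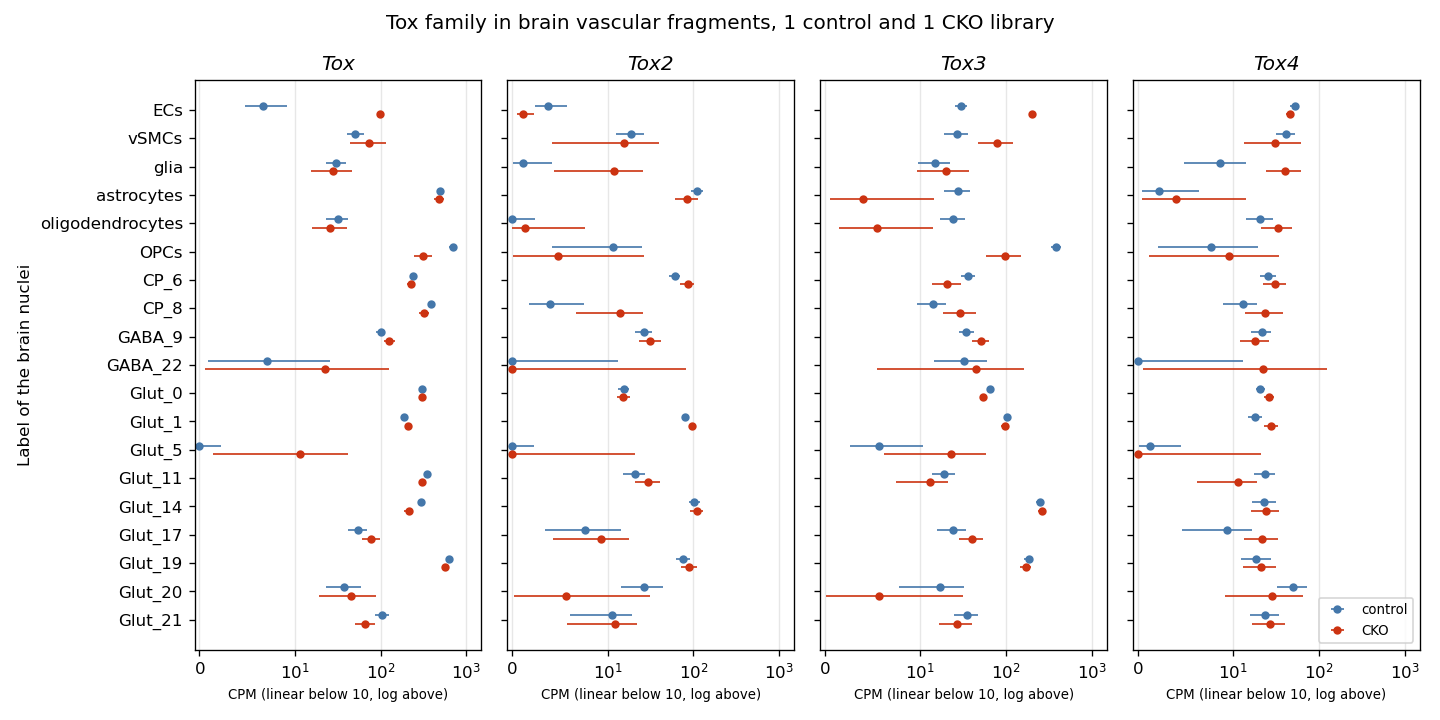
Levels of the 4 members (CPM, linear below 10 and logarithmic above) in 19 labels of brain nuclei, with a blue point for the control library and a red point for the CKO library and bars for 95% counting intervals. In ECs *Tox* was at 6.72 and 97.6 CPM and *Tox3* at 29.8 and 203 CPM, while the points of *Tox4* lay close together at 52.2 and 46.4 CPM.

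Across the 21 brain labels, control ECs were among the lowest for *Tox*. Control levels were highest in oligodendrocyte precursors (OPCs) at 703 CPM, the cluster Glut_19 at 626 CPM and astrocytes at 496 CPM, where OPCs and Glut_19 overlapped in their intervals. ECs stood 20th of 21, above the cluster Glut_5 with 0 UMIs among 1594661, which allows up to 1.88 CPM at a floor of 3 counts. In the CKO library Glut_19 led at 567 CPM, astrocytes followed at 481 CPM with an overlapping interval, and ECs stood 12th. The clusters Glut_11 at 352 CPM, Glut_0 at 303 CPM and Glut_14 at 295 CPM came after CP_8 at 388 CPM in the control. Microglia and pericytes held fewer than 20000 UMIs in the CKO library and are left out of ratios, but they stay in these orders, where CKO microglia stood 3rd for *Tox* on 5 UMIs.

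For *Tox2* the control order was astrocytes at 111 CPM, Glut_14 at 103 CPM, Glut_1 at 80.1 CPM and Glut_19 at 76.1 CPM. Intervals of astrocytes and Glut_14 overlapped, as did those of Glut_1 and Glut_19. In the CKO library Glut_14 at 110 CPM led a run of 5 labels whose neighbours overlapped, down to astrocytes at 85.1 CPM.

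For *Tox3* OPCs at 380 CPM, Glut_14 at 245 CPM, Glut_19 at 184 CPM and Glut_1 at 102 CPM led the control order without overlap between neighbours. ECs stood 11th there. In the CKO library ECs stood 2nd at 203 CPM, below Glut_14 at 264 CPM and overlapping with Glut_19 at 168 (144 to 196) CPM.

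For *Tox4* control ECs were highest at 52.2 CPM, and their interval overlapped that of Glut_20 at 49.3 CPM. In the CKO library ECs at 46.4 CPM came after microglia, which held 1 UMI of the gene.

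The share of each gene's UMIs that came from ECs depends on its EC level and on the EC share of the library. Of all UMIs, ECs held 11.7% in the control and 22.1% in the CKO. They held 0.372% and 10.2% of the UMIs of *Tox*, 5.64% and 45.9% of those of *Tox3*, 1.37% and 0.741% of those of *Tox2*, and 26.3% and 34.8% of those of *Tox4*. Over the whole library *Tox* was at 210 CPM in the control and 211 CPM in the CKO, and clusters named Glut or GABA held 71.9% and 75.9% of its UMIs. *Tox3* was at 61.6 and 97.6 CPM over the whole library, and its share in those clusters was 78.1% and 50.6%.

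Outside ECs, 43 pairs of a member and a label (15 labels) held at least 50 UMIs. Their median ratio was 0.984, and 2 pairs had a ratio of at least 2, where 2.36% of all 96876 gene and label pairs did. These were *Tox3* in vascular smooth muscle cells, at 26.5 and 77.4 CPM with a ratio of 2.92 (1.62 to 5.10), and *Tox3* in CP_8, at 14.1 and 29.3 CPM with a ratio of 2.08 (1.14 to 3.73). Another 3 pairs had a ratio of at most 0.5, against 7.07% of all pairs, and were *Tox* and *Tox3* in OPCs and *Tox4* in Glut_11 with 0.484 (0.248 to 0.886).

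In the Glut and GABA clusters alone, 27 pairs (8 labels) had a median ratio of 1.04 and a range from 0.484 to 1.67. Of these, 0 reached a ratio of 2, as against 1.68% of 57060 gene and label pairs, and 1 was at or below 0.5, as against 5.76%. The rule reads these labels as well, so nothing is read from these counts. Median ratios in these clusters were 0.949 for *Tox*, 1.18 for *Tox2*, 0.932 for *Tox3* and 1.04 for *Tox4*. The highest ratios among these pairs were 1.44 for *Tox* and 1.67 for *Tox3*. These values are a description, and a test of their difference from ECs is not possible with 1 library per genotype.

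Among pairs with at least 50 UMIs, OPCs had the lowest ratios for *Tox* and *Tox3*. *Tox* had 366 and 66 UMIs there, at 703 and 316 CPM, a ratio of 0.450 (0.341 to 0.586). *Tox3* had 198 and 20 UMIs, at 380 and 95.8 CPM, a ratio of 0.252 (0.151 to 0.400). The CKO nuclei of this label were shallower, with a median of 616.5 UMIs against 986, and held more neuron-marker transcripts (2509 against 1344 CPM) and fewer OPC-marker transcripts (2375 against 3013 CPM). In nuclei with at least 2 OPC-marker UMIs the ratios were 0.603 (0.443 to 0.807) and 0.302 (0.161 to 0.521). In nuclei without a neuron-marker UMI they were 0.538 (0.353 to 0.792) for *Tox* and 0.0922 (0.0188 to 0.275) for *Tox3*, and in those with such a UMI 0.528 (0.354 to 0.769) and 0.589 (0.318 to 1.04). The *Tox3* ratio thus differed between these subsets, of which the first holds 3 CKO UMIs, and the cause was not tested.

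Other glia were mixed. Astrocytes had *Tox* at 496 and 481 CPM, a ratio of 0.969, and *Tox3* in 37 and 2 UMIs, a ratio of 0.146 (0.0170 to 0.565). In oligodendrocytes *Tox3* had 37 and 4 UMIs, a ratio of 0.230. The label named glia had *Tox4* in 15 and 20 UMIs, a ratio of 4.63. These last 3 rest on fewer than 50 UMIs and enter no count.

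No retina label is ECs, so the retina values concern cells in which Cre is not driven. CKO libraries are given as mean ± SD, and a library entered a label with at least 10 nuclei and 20000 UMIs of it.

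*Tox* was highest in rod bipolar cells (RBC) and Müller glia (MG). In RBC the 10 CKO libraries ran from 1408 through a median of 1608 to 1941 CPM, at 1637 ± 156 (SD, n = 10), and the control was at 1720 CPM. In MG they ran from 1078 through 1303 to 1767 CPM, at 1385 ± 230 (SD, n = 10), and the control was at 1556 CPM. The control lay inside the CKO range in both labels. The ranges of RBC and MG overlapped, with RBC the higher in 9 of 10 libraries, and a gap separated MG from all labels below it.

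Retinal ganglion cells (RGC) had *Tox* at 383 ± 130 CPM (SD, n = 11), with a lowest value of 27.7 CPM in replicate 4 and of 325 CPM without it, a median of 411 and a highest of 516 CPM. GABAergic amacrine cells stood at 378 ± 46.9 CPM, cone bipolar cells (CBC) at 288 ± 39.0, glycinergic amacrine cells at 251 ± 35.2 and horizontal cells (HC) at 223 ± 83.3 (SD, n = 10 each). Retinal astrocytes followed at 202 ± 101 CPM (n = 7) and immune cells at 151 ± 70.6 CPM (n = 11). Neighbours from RGC to immune cells overlapped in range, whereas immune cells did not overlap with cones. Photoreceptors were lowest, with cones at 23.3 ± 12.9 and rods at 16.5 ± 10.8 CPM (n = 10).

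*Tox2* and *Tox3* were both highest in MG. *Tox2* in MG ran from 147 through 224 to 272 CPM in the CKO libraries, at 216 ± 37.5 (SD, n = 10), with no overlap with RGC at 87.4 ± 23.0 CPM. Below RGC, neighbours in the order overlapped, from RBC at 64.5 CPM down to rods at 3.62 CPM. *Tox3* in MG ran from 584 through 687 to 1031 CPM, at 734 ± 145, with no overlap with HC at 204 ± 47.1 CPM. Its MG level had a mean of 882 CPM in the 4 libraries of the v5.0 kit, all of batch 3, and 636 CPM in the 6 of the v4.0 PLUS kit. *Tox2* in MG was at 234 to 272 CPM in the v5.0 libraries and at 147 to 224 CPM in the others, and the kit's part in these levels was not tested. From HC the means of *Tox3* ran down through GABAergic amacrine cells at 166 CPM and RGC at 104 CPM to rods at 1.28 CPM, with overlap between neighbours throughout.

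*Tox4* was even across the retina. Its means over CKO libraries lay between 22.8 CPM in RGC and 43.0 CPM in astrocytes, and all neighbours among the 11 labels overlapped. Over whole libraries *Tox* was at 357 CPM in the control and ran from 321 to 476 CPM over 10 CKO libraries, with replicate 4 lower at 111 CPM.

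**Figure D2:**
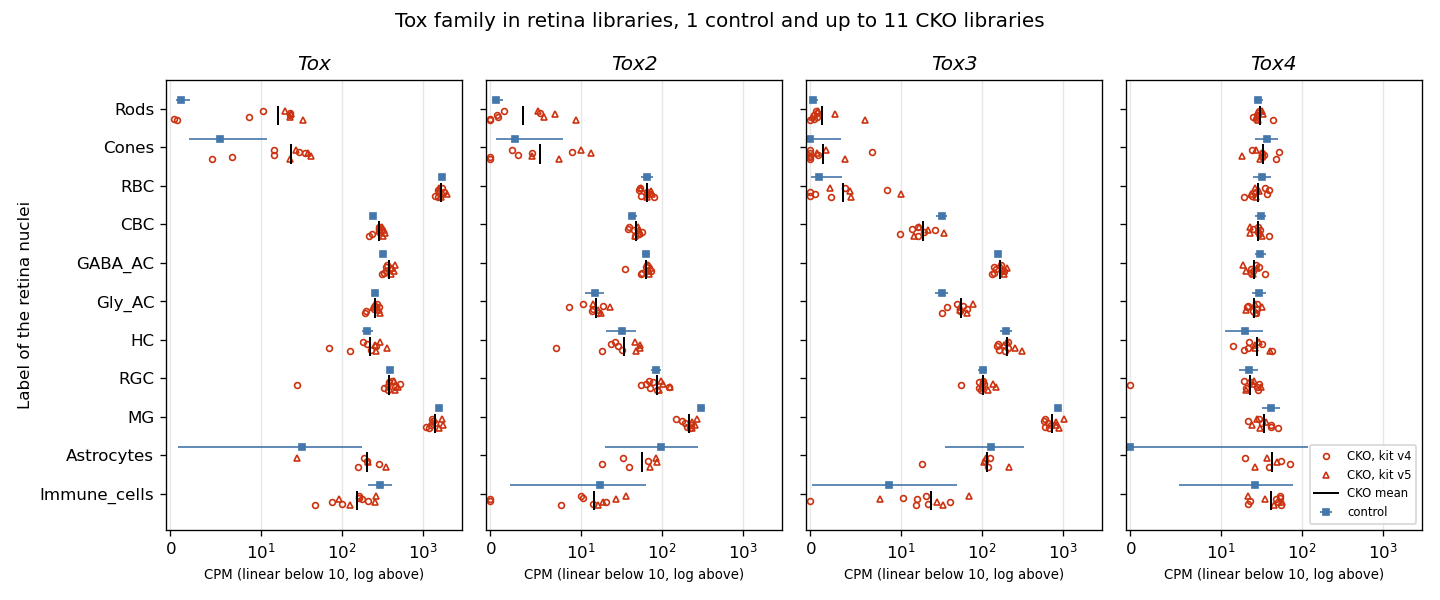
Levels of the 4 members (CPM, linear below 10 and logarithmic above) in 11 labels of retina nuclei, with a blue square and its 95% counting interval for the control library, red circles and triangles for CKO libraries of the v4.0 PLUS and v5.0 kits, and a black line for the CKO mean. In MG all 10 CKO points of *Tox2* lie below the control at 306 CPM, and in rods 8 of 10 CKO points of *Tox* lie above the control at 1.16 CPM.

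CKO and control retinas were compared with edgeR (quasi-likelihood test) on UMIs summed per library and label, with batch and kit as covariates and Benjamini-Hochberg adjustment over all genes of a label. With these covariates the contrast rests on batch 1, where 1 control library meets 3 CKO libraries, and the lone control is taken to vary as much as CKO libraries do. The members entered 38 tests, of which 2 passed an adjusted p of 0.05 and 4 had an unadjusted p under it. Over all labels 0.03% of 126498 tests passed, 0.019% higher and 0.0111% lower in the CKO, and 4.89% had an unadjusted p under 0.05. DESeq2 also passed 2 of the members' tests. Since the rule reads this contrast in the retina too, the p-values describe the size of a difference against the spread of the libraries, and nothing is read from the counts.

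*Tox2* in MG was among these. The control stood at 306 (279 to 335) CPM, the 3 CKO libraries of batch 1 at 147, 174 and 193 CPM, and all 10 CKO libraries between 147 and 272 CPM. All 10 were below the control, within batch 1 and outside it. The log2 fold change was -0.93 (SE 0.17, p = 2.13e-05, adjusted p = 0.0396), and 5 of 12992 genes, or 0.0385%, were called lower in MG. Leaving out each CKO library in turn gave log2 fold changes from -1.02 to -0.82 and adjusted p from 0.0209 to 0.137, past the threshold in 6 of 10 cases. Without replicate 1, 8, 9 or 11 it was no longer called. Over 8 other settings the adjusted p ran from 0.000108 to 0.827, with DESeq2 at 0.0177 and 4 settings past the threshold. All of these fits keep the single control library, so they are no check of it.

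The 3 MG markers summed to 2705 CPM in the control MG label and to between 2136 and 2938 CPM in the CKO libraries, with a median of 2745. Rod markers in MG summed to 1319 CPM in the control and 1103 to 1885 CPM in the CKO. The 9 EC markers summed to 1290 CPM in control MG and 1088 to 1745 CPM in the CKO. *Flt1* was the most abundant of them in the control, at 924 CPM. In MG without a UMI of 18 markers of other retinal cells, *Tox2* was at 416 CPM in the control, from 10 UMIs in 20 nuclei. There the CKO libraries, with 34 UMIs in 152 nuclei, ran from 0 through 273 to 1151 CPM, and 2 of 10 were above the control. The 18 markers include *Pax6*, at 833 CPM in control MG and 611 CPM in control GABAergic amacrine cells. Control MG with a marker UMI were 382 nuclei, so the filter also removed MG by a gene at a high level in their own label. The part of other cells' transcripts in the *Tox2* value was not tested. *Tox3* in MG was also below the control within batch 1, at 584 to 655 CPM against 851 CPM. Its log2 fold change of -0.55 (SE 0.16, p = 0.00273) did not pass adjustment (adjusted p = 0.270), and 2 of 10 CKO libraries were above the control. Without the filter on low counts, however, it did pass, at 0.0298. *Tox* in MG was at -0.29 (adjusted p = 0.668) and *Tox4* at -0.63 (adjusted p = 0.582).

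*Tox* in rods was the other call. The control stood at 1.16 (0.557 to 2.14) CPM from 10 UMIs. The CKO libraries ran from 0.364 through a median of 21.3 to 33.1 CPM, with 10.5, 22.6 and 22.6 CPM in batch 1. Replicates 6 and 7, at 0.364 and 0.704 CPM, were below the control, and the other 8 libraries were above it, so the groups overlapped. Means were 24.8 CPM in the v5.0 and 10.9 CPM in the v4.0 PLUS libraries. Within batch 3 the v5.0 libraries ran from 20.0 to 33.1 CPM, against 0.364 and 0.704 CPM in the v4.0 PLUS replicates 6 and 7. The kit's part was not tested. The log2 fold change was 3.92 (SE 0.61, p = 3.49e-05, adjusted p = 0.0493), and 8 of 14146 genes, or 0.0566%, were called higher in rods.

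Leaving out each of the 10 CKO libraries gave log2 fold changes from 3.73 to 4.22 and adjusted p from 0.0135 to 0.152, and the call was lost without replicate 2, 3, 8, 9, 10 or 11. Over 8 other settings the adjusted p ran from 2.33e-06, with DESeq2, to 1, with 2 settings past the threshold. Only 0.121% of control rods and 1.74% of pooled CKO rods held a *Tox* UMI, at medians of 961 and 1104 UMIs.

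RBC and MG have *Tox* levels far above those of rods, and their markers were therefore read in rods. The 5 bipolar markers summed to 1139 CPM in control rods and to between 995 and 1209 CPM in the CKO libraries, and nearly all of this was *Prkca*, at 1134 CPM in the control and 988 to 1206 CPM in the CKO, with the other 4 bipolar markers near 0. The 3 MG markers summed to 4.53 CPM in control rods and ran from 0 through 10.1 to 92.2 CPM in the CKO, with 27.8 to 92.2 CPM in the v5.0 libraries. In rods without a UMI of 17 markers of other retinal cells, *Tox* had 0 UMIs in 1996 control nuclei, which allows up to 1.82 CPM at a floor of 3 counts. It had 64 UMIs in 10869 CKO nuclei, with a lowest value of 0, a median of 8.67 and a highest of 35.3 CPM over the libraries, 8 of which had a UMI. The 17 markers include *Prkca*. Control rods with a marker UMI were 4625 nuclei with 6957010 UMIs, against 1996 nuclei with 1647033 UMIs without one. The filter therefore sorts rods by *Prkca* and depth too, and the part of other cells' transcripts in the rod value was not tested.

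Other tests of the members did not pass. Cones had *Tox* at 5.53 CPM from 6 UMIs in the control and from 4.62 through 24.8 to 41.5 CPM in the CKO, above the control in 9 of 10 libraries. The log2 fold change of 2.09 (SE 0.68, p = 0.00602) had an adjusted p of 0.741, and whether effects differed between labels was not tested. *Tox3* in glycinergic amacrine cells was at 32.2 CPM in the control and between 32.6 and 77.4 CPM in all 10 CKO libraries, with a log2 fold change of 0.55 and an adjusted p of 0.960. *Tox3* in CBC was at 31.9 CPM in the control, above 9 of 10 CKO libraries, with an adjusted p of 1.

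Immune cells were examined for the lymphocyte role of TOX. The 29 control nuclei of this label had *Tox* at 297 (206 to 415) CPM, and the 11 CKO libraries ran from 46.7 through 159 to 259 CPM, all below it. The log2 fold change of -0.93 had a p of 0.152 and an adjusted p of 1, and without replicate 4 it was -0.90 with an adjusted p of 0.753. The 5 bipolar markers, all with UMIs, summed to 4831 CPM in control and 1616 CPM in pooled CKO immune cells, with *Prkca* the most abundant at 2883 and 882 CPM. RBC have the highest *Tox* level, and the part of their transcripts in this difference was not tested. Among pooled CKO immune nuclei, 31 held at least 2 UMIs of T and NK cell markers other than *Ptprc*, and *Tox* stood at 234 (159 to 332) CPM in them and was seen in 9 nuclei, or 29.0%. In the 30 nuclei with 1 such UMI it stood at 225 (172 to 288) CPM and was seen in 36.7%, at a median depth of 4462 UMIs. In the 630 without such a UMI it stood at 114 (100 to 130) CPM and was seen in 11.1%, at a median of 1708 UMIs against 1443 in the nuclei with at least 2. The 28 control nuclei without a UMI of these markers had 288 CPM and held 30 of the 34 control UMIs. All 29 control immune nuclei held at least 2 microglia-marker UMIs, and the 456 CKO nuclei that did so had *Tox* at 138 CPM.

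Further, 5 lists of related genes set the members beside their known pathways in brain ECs, with counts read against the 11351 genes. Of 26 other HMG-box genes, all had at least 50 UMIs, and 1 had a ratio of at least 2, which 9.45% of all 11351 genes reached. That was *Sox12*, a SOX transcription factor, at 7.12, followed by *Hmgb3*, a chromatin protein, at 1.90. The lowest were *Sox11* at 0.609 and *Sox18*, an endothelial SOX factor, at 0.641, and the median was 1.06.

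Some of the 18 calcineurin, NFAT and NR4A genes act up or downstream of TOX in T cells. Of the 18, 14 had at least 50 UMIs and 2 had a ratio of at least 2, against the same 9.45% of all genes. *Egr3* was at 5.93 and *Nr4a1* at 2.51, both transcription factors induced by calcium signals. *Nfatc4* at 0.569 and the calcineurin subunit *Ppp3r1* at 0.624 were lowest, and the median was 1.28.

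Of 16 lymphocyte genes linked with TOX, 15 were in the brain table and 6 had at least 50 UMIs, of which 1 had a ratio of at least 2, against 9.45% of all genes. *Nfil3*, a transcription factor of innate lymphoid cells, had 5 and 66 UMIs and a ratio of 11.2, and the checkpoint receptor *Havcr2* had 1.78. *Id2* at 0.691 and *Zbtb7b* at 0.702 were lowest, with a median of 0.870. The other 9 genes of this list in the table had fewer than 50 UMIs.

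The 5 genes of the PTW/PP1 complex all had at least 50 UMIs and a median ratio of 1.07, and 0 had a ratio of at least 2. The scaffold *Ppp1r10* was at 1.47, and the phosphatase subunits *Ppp1cc*, *Ppp1cb* and *Ppp1ca* were at 1.09, 1.05 and 0.883. *Tox4* itself was at 0.889 (0.757 to 1.04). Of 8 partners and cofactors, 7 had at least 50 UMIs, with a median of 0.956 and 0 at a ratio of at least 2, against 9.45% of all genes. *Creb1* and its coactivator *Crebbp* were both at 1.18, and the inhibitors *Id1* and *Id3* were at 0.572 and 0.768. No gene with at least 50 UMIs in the 5 lists had a ratio at or below 0.5, where 3.9% of all genes lay.

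In the retina, 60 genes of these 5 lists were tested, and 0 tests passed the threshold by edgeR. An unadjusted p under 0.05 was reached in 7 of 202 tests of HMG-box genes, 4 of 110 of the calcineurin list, 5 of 45 of lymphocyte genes, 2 of 51 of the phosphatase complex and 1 of 58 of partners, against the 4.89% of all tests. DESeq2 also called 0, with a smallest adjusted p of 0.174, and had 10 tests at an unadjusted p under 0.05. The median log2 fold change was 0.04 for the HMG-box genes, 0.01 for the calcineurin list, -0.19 for the lymphocyte genes, -0.04 for the PTW/PP1 complex and -0.01 for the partners. By edgeR the smallest adjusted p was 0.185, for *Tcf7l1*, an HMG-box factor of the Wnt pathway, in MG, with a log2 fold change of -0.76.

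Genes whose pattern over labels was most like a member's are given as a description, by Pearson's r of log2(CPM + 1). In the brain, over all 21 labels in 2 libraries (42 points that share libraries and depth, shallow labels included) and 14447 genes with at least 200 UMIs, *Tox* was most like *Enah* (0.829), *Xylt1* (0.801) and *Arnt2* (0.790). *Tox2* was most like *Zfp420* (0.812), *Oscp1* (0.809) and *Gm36346* (0.808). *Tox3* was most like *Lmbr1* (0.850), *Ube3c* (0.770) and *Socs5* (0.766), and *Tox4* most like *Rab21* (0.829), *Trap1* (0.810) and *Samd4b* (0.806).

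In the retina, over 11 labels with CKO libraries pooled and 16921 genes, *Tox* was most like *Dpy19l3* (0.944), *Sorcs2* (0.943) and *Mpp2* (0.942). *Tox2* was most like *Adamts17* (0.937), *Sema3e* (0.924) and *Cys1* (0.922), and *Tox3* most like *Sema6a* (0.968), *Adam23* (0.967) and *Adamts18* (0.964). *Tox4* was most like *Acbd3* (0.975), *Vamp8* (0.975) and *Golga3* (0.972). With a pseudocount of 10, the 3 leading genes of a member and tissue shared from 0 to 2 names with these.

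Within the family, *Tox* and *Tox2* had the most similar patterns in both tissues, with r of 0.898 over retina labels and 0.668 in the brain. *Tox2* and *Tox3* followed in the retina at 0.739, and *Tox* and *Tox3* were at 0.573 there and 0.454 in the brain. *Tox4* had r between -0.084 and -0.010 with the others in the retina, and between 0.231 and 0.414 in the brain, where a pseudocount of 10 gave 0.110 to 0.175.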

How the data were processed

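Counts as deposited are whole UMIs of each gene in each nucleus. The authors obtained them with PIPseeker on a GRCm39 index, with CellBender for background and SOLO for doublets, followed by removal of mixed nuclei and of clusters of CKO retina replicates 4 and 5. The submitters' processing notes instead name mm10 as the genome build. Only gene symbols join the counts to the annotation used here, which is GENCODE for GRCm39. Cell type, batch and kit are the authors' labels.

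Counts were summed per library and label and divided by the label's total. Labels entered ratios and retina values with at least 10 nuclei and 20000 UMIs, while brain orders and correlations used all labels, and ratios were counted for genes with at least 50 UMIs. Thinning drew 500 UMIs per nucleus without replacement and left out shallower nuclei. Retina tests used edgeR 4.0.16 (TMM, filterByExpr, robust quasi-likelihood fit, covariates batch and kit, Benjamini-Hochberg threshold 0.05) with limma 3.58.1 and, as an alternative, DESeq2 1.42.0, in R 4.3.3, and were tested on simulated data. The remaining steps ran in Python 3.11.15 with pandas 2.3.3, scipy 1.17.1, matplotlib 3.10.9 and numpy 2.4.6.

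The members and the gene lists were chosen with earlier results of these data known. Named are the 4 members, the 3 genes of highest correlation per member and tissue, and from each of 5 lists the 2 largest and 2 smallest ratios in brain ECs. Markers, the study's alleles and overlapping genes are named besides, and *Tcf7l1* for its smallest adjusted p by edgeR. Alternatives covered scaling, depth, nuclei picked by EC markers, marker-free nuclei, covariates, tools, filters, libraries and pseudocounts. RefSeq tables held no promoter entry for a member, and a protein table was not available.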

Additional observations from a re-analysis of the deposited data

Results flagged for a closer look

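Of 36 groups of a member and a retina label with 4 to 10 CKO libraries, 3 (8.33%) had a library whose gap to its nearest neighbour was large for the range of the group by Dixon's test. Chance flags about 1 in 20 groups. *Tox2* in GABAergic amacrine cells was lowest in CKO replicate 3, at 35.3 CPM from 76 UMIs, below the next library at 55.3 CPM and the highest at 74.1 CPM. *Tox3* in rods was highest in CKO replicate 11, at 6.02 CPM from 42 UMIs, above the next at 2.74 CPM and the lowest at 0. *Tox4* in rods was highest in CKO replicate 7, at 44.0 CPM from 125 UMIs, above the next at 33.3 CPM and the lowest at 25.3 CPM. These are 3 different libraries and none of the 3 groups had a call in the retina tests. Replicate 11 is of the v5.0 kit, and the 2 others are of the v4.0 PLUS kit.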

How the results depend on the processing

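For the EC ratios of *Tox*, *Tox2*, *Tox3* and *Tox4*, all values for *Tox* and *Tox3* stayed above 1 and all for *Tox2* below 1. The *Tox2* values rest on few UMIs, and some of their intervals included 1. These were EC nuclei with 0 astrocyte-marker UMIs (2 and 1 UMIs of *Tox2*) or 0 T and NK cell and microglia marker UMIs (6 and 1). After thinning (5 and 1) the interval included 1 as well. Nuclei of any label with at least 2 EC markers gave 2.01 for *Tox*, 5.49 for *Tox3* and 1.05 for *Tox4*. EC nuclei with 0 neuron-marker UMIs gave 27.6 for *Tox*. Those with 0 pericyte-marker UMIs gave 32.4 (10.2 to 165) for *Tox3*, from 3 control and 33 CKO UMIs, and held 0 and 5 UMIs of *Tox*. With 0 astrocyte-marker UMIs the ratios were 76.9 (26.0 to 375) for *Tox*, from only 3 control UMIs, and 8.67 for *Tox3*. With 0 UMIs of 4 neural marker lists the ratio was 11.8 for *Tox3*. The mean of each nucleus's own CPM gave 10.6 for *Tox3* and 1.13 for *Tox4*, and thinning to 500 UMIs gave 11.6 and 1.30. No ratio could be given where at least 1 library had 0 UMIs. That was so with 0 pericyte-marker UMIs for *Tox*, *Tox2* and *Tox4*, and with 0 neuron-marker UMIs for *Tox2*. It was also so with the 4 neural lists for *Tox* and *Tox2*. Both libraries had 0 UMIs of *Tox2* with 0 pericyte-marker UMIs and with the 4 neural lists.

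Thinning lowered the shares of EC nuclei with a UMI, as fewer UMIs are drawn. At 500 UMIs they were 0.194% (control) and 2.85% (CKO) for *Tox* and 1.02% and 10.8% for *Tox3*, and at 1000 UMIs 0.408% and 8.10%, and 2.86% and 17.6%.

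The number of retina tests past the threshold was 2. It was 0 with the kit alone as covariate, with no covariate, in the control's batch alone and with adjustment over all labels together. It was 1 without scaling factors and with nuclei of at least 1000 UMIs, and leaving out each CKO library gave 0 to 2. For *Tox2* in MG the log2 fold change missed the threshold with the kit alone (-0.69), no covariate (-0.59), the control's batch alone (-0.94) and adjustment over all labels (-0.93), and was -1.02 to -0.82 over left-out libraries. For *Tox* in rods it missed the threshold at 3.21, 3.71, 3.93 and 3.92 under the same settings, at 3.94 without scaling factors and at 4.09 with nuclei of at least 1000 UMIs, and was 3.73 to 4.22 over left-out libraries. The control's batch alone has fewer libraries, and adjustment over all labels covers more tests; otherwise the cause was not tested.

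*Tox3* in MG had a mean of 882 CPM in the v5.0 libraries. With a pseudocount of 10, the 3 genes most like a member shared 1 name in the brain and 1 in the retina for *Tox* and for *Tox2*, 1 in the brain for *Tox3* and 0 in the brain for *Tox4*; the cause was not tested.

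Of the remaining values of these results, 72 kept their direction and side of the threshold or moved less than their error. So did 47 values of single genes, while 2 ratios in OPCs moved (*Tox* to 0.603 with at least 2 OPC-marker UMIs and *Tox3* to 0.0922 without a neuron-marker UMI) and *Tox3* in MG passed the threshold without the filter on low counts. Astrocyte-free and neural-marker-free EC nuclei, the OPC subsets, batch 2 left out and adjustment over all labels were chosen after seeing the data. No paired analysis was possible because no label links libraries of the same animal. Depth limits *Tox2* in ECs (22 and 8 UMIs) and *Tox* in control rods (10 UMIs).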

Other observations

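The brain values rest on 1 library per genotype, and each of these pooled 2 brains, so animal, library and genotype cannot be told apart there. The single retina control carries every retina contrast, and whether its own departure from other controls would be as large was not tested. Retina labels include no ECs, so these counts do not follow the members in ECs of a second tissue. Nuclear RNA includes introns, which differ in length among the members, and levels were therefore not compared between genes.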
